A study of Homo sapiens with 12 samples.

Results

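The deposited table holds 96247 transcripts, and 13977 of them carry an identifier that starts with TCONS_, which marks transcripts assembled from the reads and not taken from the Ensembl annotation. The transcripts described here are the 4742 of these whose FPKM (mapped fragments scaled to transcript length and library depth) reached 1 in at least 3 of the 12 libraries. Each was kept as a row of its own and none was summed with another. Of the 82270 Ensembl transcripts in the same table, 27116 passed the same expression rule and served for comparison. BROX (TCONS_00006422) and PKP3 (TCONS_00019381) stood just inside the rule, at 1 FPKM in the lowest of their top 3 libraries, and KCNC4 (TCONS_00003566) and NR5A2 (TCONS_00005723) stood just outside it at 0.99.

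The libraries come from A549, a human non-small cell lung cancer line, with no treatment. NR0B1, also known as DAX1, belongs to the orphan nuclear receptors and mostly represses transcription together with other factors. There were 4 groups of 3 libraries: NR0B1 overexpression (OE), its WT-overexpression control (OE control), NR0B1 knockdown by the construct labelled shNR0B1 (KD), and its WT-knockdown control labelled shNC (KD control). The series title names glutathione metabolism and ferroptosis, in which iron and peroxidised lipids kill the cell. The labels give no vector, no clone, no time after transduction and no statement that replicates were separate cultures, so that p-values measure only the spread between these libraries.

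Transcript assembly joins overlapping and spliced read alignments into models without asking for a match in an annotation. A model that differs from the annotated isoforms can hold another exon combination, a retained intron, a longer end, a join of neighbouring genes or a stretch that is not annotated, and short reads often cannot tell these apart. A name is then usually given from the most similar known protein, so that the Symbol of an assembled transcript reports a protein match, and a related gene or a protein of another species can supply it. Sequences and genome positions of the assembled transcripts were not analysed here, and the positions given below are those of the annotated gene of the same Symbol in GENCODE 29 (GRCh38).

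The targeted gene was checked from its Ensembl rows, since no assembled transcript of the set has the Symbol NR0B1. Its FPKM was 40.2, 33.42 and 35.17 in the OE libraries against 6.99, 24.59 and 22.02 in the OE control, and 1.28, 1.36 and 2.45 in the KD libraries against 7.0, 9.01 and 5.47 in the KD control. All 3 libraries stood above their control with overexpression and below it in the knockdown, and OE control 1 stood far below the other OE controls. Keratins KRT7, KRT8 and KRT18 lay between 547 and 1680 FPKM, EPCAM lay between 0.23 and 2.6, and markers of alveolar type 2, endothelial, fibroblast and T cells stayed at or below 0.66, other than LAMP3 at 0.14 to 5.78; the macrophage and lysosome gene CD68 lay between 15.1 and 59.6. The libraries held 15049011 to 22797076 expected counts, of which the 4742 assembled transcripts took 12.7% to 14.6%. Mean correlation with the other libraries of the group, over these transcripts, was lowest for KD 2 (0.825) and OE control 1 (0.834) and reached 0.888 in KD control 2; counts of changed transcripts without those 2 libraries are given below.

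By Symbol, 4136 of the 4742 transcripts (87.2%) carried the Symbol of an Ensembl row of the table and 170 (3.58%) did so apart from letter case, as in Srsf3 or Nrcam. A further 239 (5.04%) had another Symbol and 197 (4.15%) had none. The protein match was human for 3210 transcripts (67.7%), from another primate for 1130 (23.8%), from another organism for 353 (7.44%) and without a species for 49. Chimpanzee supplied 222 of the primate names and mouse 41 of the others, and 118 organisms occurred in all. Words for a retroelement, such as a reverse transcriptase, occurred in 33 descriptions.

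The 4545 transcripts with a name shared 3471 Symbols, of which 2784 had a single assembled transcript and 33 had at least 5. The Symbols with the most were SMG1 (34 transcripts), a kinase of nonsense-mediated decay, PKD1 (27), the membrane protein polycystin, C16orf89 (24), GVQW1 (21), ZNF714 (21), a zinc finger gene, and HERC2 (20), a large ubiquitin ligase. SMG1, PKD1 and HERC2 have many near-identical copies in the human genome, among which reads can be divided, so the values of single rows of these Symbols are uncertain.

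The assembled transcripts were long. Length was recovered from the ratio of expected count to FPKM after calibration on the Ensembl rows, and its median was 3976 bases (interquartile range 2327 to 6574) against 2182 bases for the Ensembl rows. At least 10000 bases were reached by 443 assembled transcripts (9.34%) and by 450 Ensembl rows (1.66%). At least 50000 bases were reached by 10 assembled transcripts and by 0 Ensembl rows. Of the 4299 whose Symbol is a GENCODE gene, 1308 (30.4%) were longer than the longest annotated transcript of that gene, and 47 were longer than the whole gene. NHS (TCONS_00151631), named for the actin regulator of the Nance-Horan syndrome, came to 207918 bases, where the longest annotated NHS transcript has 8860 bases within the gene at chrX:17375420-17735994.

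**Figure D1:**
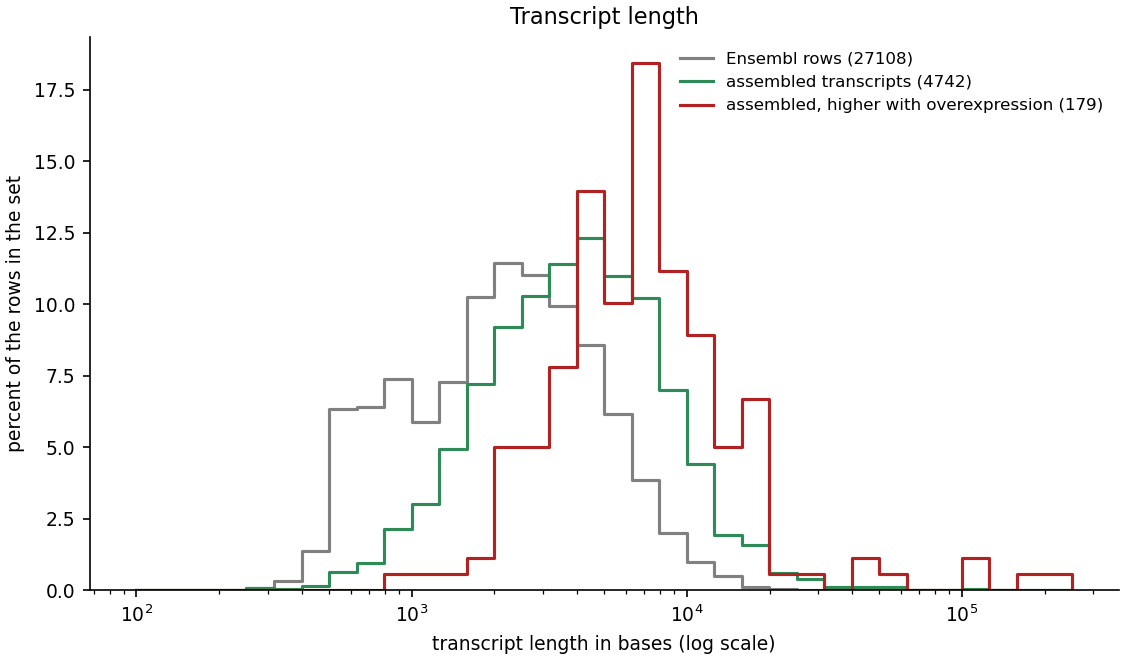
Share of rows (percent, y axis) by transcript length in bases (x axis, log scale) for 27108 Ensembl rows (grey), the 4742 assembled transcripts (green) and the 179 of these that were higher with overexpression (red). The assembled transcripts lie to the right of the Ensembl rows, with medians of 3976 and 2182 bases, and those higher with overexpression lie further right, with a median of 6779 bases.

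Most assembled transcripts were expressed at a low level. The median of their mean FPKM over 12 libraries was 2.04 against 3.37 for the Ensembl rows, and 604 (12.7%) reached 10 FPKM against 23.2% of the Ensembl rows. Expression was above 0 in every library for 70.1% of them, against 80.2% of the Ensembl rows. In 1187, beside 15.9% of the Ensembl rows, at least 1 group of 3 libraries held both a value of 0 and a value of 1 FPKM or more. The fitted biological coefficient of variation had a median of 42.8% over the assembled transcripts and 36.0% over the Ensembl rows.

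The set also holds strongly expressed rows. The highest was TCONS_00043572, with the Symbol MYL10, that of a myosin light chain, at 4910 to 9862 FPKM and 0.792% to 1.61% of all expected counts of a library, while every Ensembl row of MYL10 was listed at 0, so that this name is in doubt. Its libraries were 7026, 5562 and 5333 FPKM for OE, 7328, 8449 and 9862 for OE control, 6449, 7771 and 6642 for KD and 5785, 6114 and 4910 for KD control, and it passed the test in neither arm. PFN1 (TCONS_00063151), the actin-binding protein profilin, followed at a mean of 992 FPKM and made up 93.2% of the FPKM of its Symbol. AKR1C3 (TCONS_00013664), an aldo-keto reductase of steroid and prostaglandin metabolism, averaged 405 FPKM, PABPC1, which binds poly(A) tails, 309, and SQSTM1, an autophagy receptor, 204. Names in mouse style among the 10 highest included Tes at 321 FPKM, S100a10 at 204 and Tmsb10 at 195.

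Set beside the Ensembl rows of the same Symbol, an assembled transcript held a median of 25.3% of the Symbol's FPKM (interquartile range 11.1% to 46.4%). In 912 of 4136 (22.1%) it exceeded the sum of all Ensembl rows, as for TGM2 (TCONS_00094869; 92.3% of its Symbol), a transglutaminase, HIST1H2BK (TCONS_00128666; 93.5%), a histone, and CDC123 (TCONS_00013852; 96.6%), a translation initiation factor assembly protein. For 113 transcripts the Ensembl rows of the Symbol averaged under 0.1 FPKM. Reads were divided among overlapping transcripts by an estimate, so that an assembled transcript and an Ensembl row of the same locus share reads and their values are not independent.

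With NR0B1 overexpression, 266 of the 4742 assembled transcripts differed from the control, 179 higher and 87 lower. A transcript was called where its Benjamini-Hochberg adjusted p from edgeR's quasi-likelihood test, adjusted over all 31858 rows tested, lay below 0.05. The share of 5.61% stands beside 4.74% for all rows tested (2.83% higher and 1.91% lower) and 4.59% for the Ensembl rows, and the median log2 change was 0.01 against -0.04 for all rows. The rises included long transcripts of splicing factors, of cell adhesion genes and of rows with no Symbol. Among rows of 10 FPKM or more, 50 of 604 assembled transcripts (8.28%) and 8.57% of Ensembl rows were called, and under 10 FPKM the shares were 5.22% and 3.39%. The number of assembled transcripts called was 141, 89 and 93 without OE 1, 2 or 3, 417, 70 and 92 without OE control 1, 2 or 3, and 601 without both libraries that stand apart. The call held in each of the 12 fits that leave out a library for 54 of them, 41 higher and 13 lower, and unless a library is named the transcripts described singly below are drawn from these, a choice made after their values were seen. Those taken by size of change in either arm also had to show no overlap between treated and control libraries. That trait is therefore not a result for them, and where it is stated below it only describes the printed values. The share of all rows with this trait is not reported here.

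**Figure D2:**
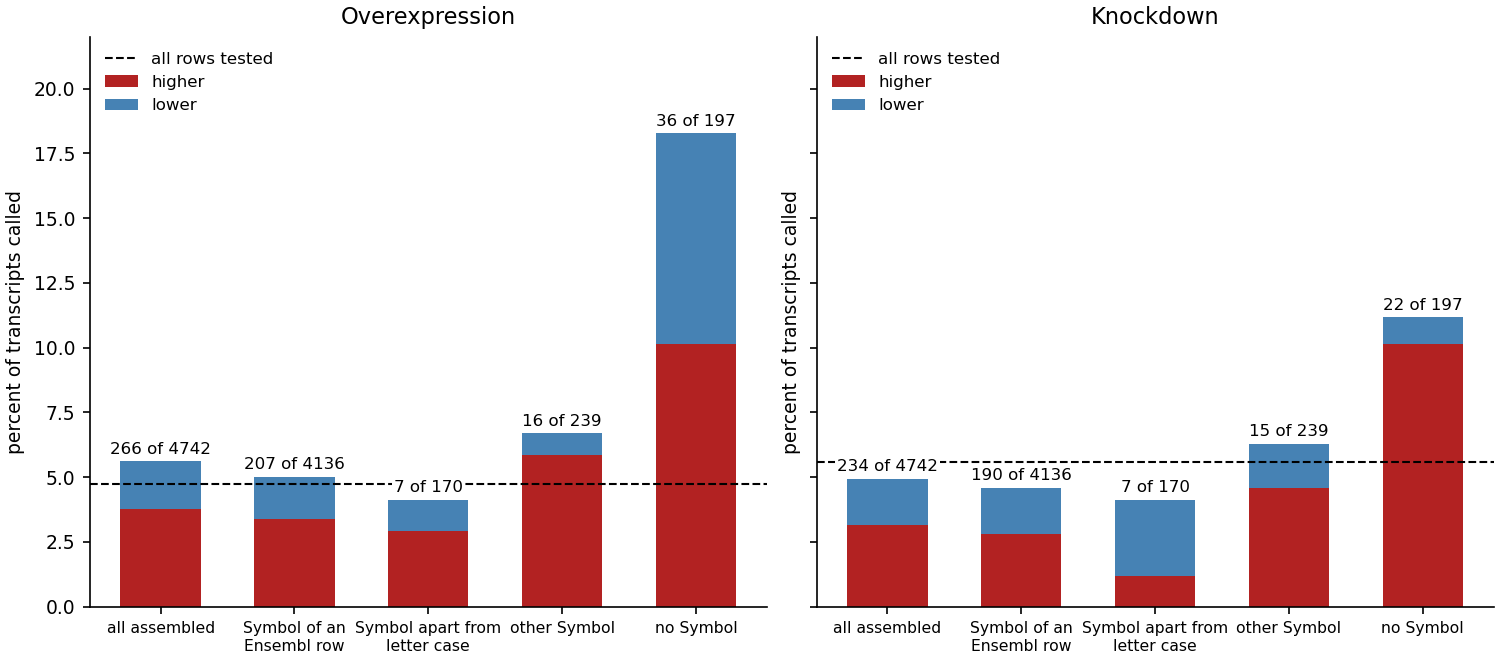
Percent of assembled transcripts called (y axis; red higher, blue lower) with overexpression (left) and in the knockdown (right), for all of them and by class of Symbol, with the number called of the number in the class above each bar; the dashed line is the share of all rows tested (4.74 and 5.57). Transcripts with no Symbol stand highest in both panels, with 36 of 197 and 22 of 197 called.

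Splicing factors gave the most rises of any gene list with overexpression. The list holds 39 assembled transcripts of 27 Symbols, of which 12 were called, 10 higher and 2 lower, with a median log2 change of 0.31 over the 39; 19 of 206 Ensembl rows of the list were called, all higher, with a median of 0.38. The share called was 30.8% of the assembled transcripts and 9.22% of the Ensembl rows of the list, beside 4.74% of all rows tested. Called assembled transcripts in the list numbered 7, 3 and 5 without OE 1, 2 or 3, and 3 and 5 without OE control 2 or 3. The count was 18 without both libraries that stand apart. SRRM2 (TCONS_00051339; gene at chr16:2752329-2772538), a scaffold protein of nuclear speckles, measured 89.34, 95.66 and 92.99 FPKM in OE against 57.62, 47.67 and 47.81 in OE control. All OE libraries stood above all controls, a log2 change of 0.82 ± 0.12 (SE; adjusted p = 0.00956), and the Ensembl rows of SRRM2 averaged 42.5 against 25.4 FPKM.

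TRA2A (TCONS_00136173; gene at chr7:23504780-23532041), a splicing activator of the SR family, measured 9.42, 13.58 and 13.26 FPKM in OE against 5.1, 5.61 and 5.66 in OE control. The groups did not overlap and the log2 change was 1.11 ± 0.16 (SE; adjusted p = 0.00927). SRSF4 (TCONS_00008330; gene at chr1:29147743-29181987), another SR protein, measured 7.49, 8.84 and 8.39 FPKM against 3.65, 2.78 and 2.56. It rose by 1.42 ± 0.18 on the log2 scale (SE; adjusted p = 0.006), while the Ensembl rows of SRSF4 averaged 9.78 FPKM in OE and 13.8 in OE control. Other called members of the list were less steady: SRSF7 (TCONS_00087065), with a log2 change of 2.2 (adjusted p = 0.0156), was no longer called without OE 2 (0.0527), OE control 2 (0.0701) or OE control 3 (0.0675), and SRSF1 (TCONS_00065991), at 1.96 (adjusted p = 0.0206), without OE 2 (0.0668), OE 3 (0.0634) or OE control 2 (0.0749). DDX17 (TCONS_00100647) and HNRNPU (TCONS_00013435), an RNA helicase and an RNA-binding nuclear matrix protein, were the 2 that were lower, at -1.0 and -0.66, and each lost its call without OE 2, OE 3, OE control 2 or OE control 3 (adjusted p up to 0.0966), HNRNPU also without OE 1.

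CLK2, a kinase that phosphorylates SR proteins, is not on that list, and its assembled and annotated transcripts went in opposite directions. TCONS_00011298, of 3324 bases, measured 6.83, 6.95 and 7.35 FPKM in OE against 2.05, 2.16 and 1.9 in OE control, a log2 change of 1.75 ± 0.22 (SE; adjusted p = 0.0063). The summed Ensembl rows of CLK2 (chr1:155262868-155278491) went the other way, at 3.29, 3 and 2.46 FPKM against 7.13, 8.57 and 8.08. Neither the assembled transcript nor the sum overlapped between the groups.

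The steady rises with overexpression also included the following genes of the cell surface and adhesion, picked after their values were seen. TNS4 (TCONS_00064835; gene at chr17:40475828-40501597), a tensin of focal adhesions, measured 13.64, 13.64 and 13.07 FPKM in OE against 2.6, 3.33 and 3.68 in OE control, a log2 change of 2.04 ± 0.23 (SE; adjusted p = 0.00386). The groups lay far apart, and the Ensembl rows of TNS4 averaged 108.5 against 70.0 FPKM. TNS4 was also called higher in the knockdown, at 4.3, 4.81 and 7.49 FPKM in KD against 2, 2.37 and 2.91 in KD control (log2 change 1.22, adjusted p = 0.0151, and 0.0654 and 0.0568 without KD control 1 or 2). PVR (TCONS_00073841; gene at chr19:44643798-44663583), the nectin-like poliovirus receptor, measured 14.44, 16.29 and 15.48 FPKM against 6.32, 5.97 and 6.3, a log2 change of 1.28 ± 0.17 (SE; adjusted p = 0.00675). At 9011 bases it was far longer than the longest annotated PVR transcript of 3325 bases. PRICKLE2 (TCONS_00107873), a planar cell polarity protein, measured 9.08, 11.36 and 11.91 FPKM against 3.8, 3.65 and 3.11 and rose by 1.58 ± 0.14 on the log2 scale (SE; adjusted p = 0.00157). BCAR3 (TCONS_00009890), an adaptor of integrin signalling, at 1.07, 1.82 and 1.48 FPKM against 0.2, 0.27 and 0.27, and PANX1 (TCONS_00022924), a membrane channel, at 5.45, 4.44 and 5.93 against 2.01, 1.91 and 1.96, rose too, with log2 changes of 2.52 and 1.39 (adjusted p = 0.00684 and 0.00927). PRICKLE2 and PANX1 were called higher in the knockdown too, at 0.54 and 0.82 (adjusted p = 0.0492 and 0.0451), and each of these calls ended in 9 of the 12 fits that leave out a library (up to 0.153 and 0.134).

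Further steady rises had no list or test of their own, and several were of nuclear genes. TSC22D2 (TCONS_00104639), of the TSC22 domain family, measured 14.9, 21.18 and 18.77 FPKM in OE against 5.75, 3.42 and 3.48 in OE control, a log2 change of 2.07 ± 0.23 (SE; adjusted p = 0.0035). EPC2 (TCONS_00083515), related to the enhancer of polycomb of the NuA4 acetyltransferase, measured 7.75, 9.89 and 6.99 FPKM against 2.18, 0.71 and 1.2, a log2 change of 2.54 (adjusted p = 0.00849). DNTTIP2 (TCONS_00009900), a nucleolar protein, measured 6.66, 6.08 and 7.43 FPKM against 1.94, 1.48 and 2.03, a log2 change of 1.85 (adjusted p = 0.00479). None of these groups overlapped. DNTTIP2 was also called higher in the knockdown, at 2.3, 1.75 and 2.83 FPKM in KD against 0.81, 1.12 and 1.1 (log2 change 1.21, adjusted p = 0.0129, and 0.054 without KD control 1). PPP1R10 (TCONS_00128851), a nuclear regulator of protein phosphatase 1, had a log2 change of 1.04 (adjusted p = 0.00959) and IKBKG (TCONS_00156141), the regulatory subunit of the NF-kappaB kinase, a log2 change of 1.52 (adjusted p = 0.00597). Of the 33 transcripts on the chromatin list, 2 (6.06%) were called with overexpression, beside 4.74% of all rows tested, and both were higher. Of the 233 Ensembl rows of that list 10 were higher and 6 lower. The called transcripts included TET3 (TCONS_00081893), a 5-methylcytosine oxidase, with a log2 change of 1.14 (adjusted p = 0.0319, and not called without KD control 1, OE 1, 2 or 3, or OE control 2 or 3, up to 0.114).

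Several rises were of transcripts much longer than any annotated form. AADAC (TCONS_00104684; gene at chr3:151814037-151828488), an esterase of the endoplasmic reticulum, came to 18817 bases where the longest annotated form has 1642, and measured 11.77, 12.32 and 11.82 FPKM in OE against 3.44, 3.76 and 2.34 in OE control. At this length the transcript exceeds the whole annotated gene, so that its name is in doubt. It rose by 1.87 on the log2 scale (adjusted p = 0.00661), while the Ensembl rows of AADAC averaged 0.937 against 3.85 FPKM. In the knockdown it was called higher as well, at 4.04, 7.84 and 7.05 FPKM in KD against 2.98, 2.8 and 2.73 (log2 change 1.18, adjusted p = 0.0206, and 0.0693, 0.0704 and 0.0809 without KD control 1, 2 or 3). MRPS23 (TCONS_00065964; gene at chr17:57834781-57850056), a protein of the mitochondrial ribosome, measured 2.16, 2.37 and 2.42 FPKM against 0.19, 0.16 and 0.1, a log2 change of 3.89 ± 0.53 (SE; adjusted p = 0.00696). Its Ensembl rows averaged 18.5 and 18.0 FPKM in the same groups. The NHS transcript of 207918 bases measured 2.45, 5.43 and 3.93 FPKM against 1.16, 1.04 and 0.75, a log2 change of 1.96 ± 0.28 (SE; adjusted p = 0.00875).

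By median length, transcripts called in either direction were longer than those not called, in both arms. With overexpression, the median length was 6779 bases among transcripts called higher, 4776 among those called lower and 3881.5 among those not called. Longer than the longest annotated transcript of their Symbol were 85 of 145 (58.6%) called higher, 33 of 69 (47.8%) called lower and 1190 of 4085 (29.1%) not called. In the knockdown the medians were 5375, 4841 and 3918 bases, and the shares were 53 of 118 (44.9%), 19 of 79 (24.1%) and 1236 of 4102 (30.1%). A longer transcript gathers more counts at the same FPKM; the part of this in the calls was not tested.

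Fewer transcripts fell with overexpression. CYGB (TCONS_00066969; gene at chr17:76527356-76551175), the oxygen-binding cytoglobin, measured 0.21, 0.25 and 0.18 FPKM in OE against 1.87, 2.1 and 1.76 in OE control, a log2 change of -3.21 ± 0.43 (SE; adjusted p = 0.00696). SH3BP2 (TCONS_00110886), an adaptor of immune receptor signalling, measured 0.3, 0.27 and 0.61 FPKM against 2.24, 1.96 and 2.05, a log2 change of -2.45 (adjusted p = 0.00938). The groups did not overlap in either. TROAP (TCONS_00030046), a spindle-associated protein, was listed at 0 in all 3 OE libraries and at 0.51, 1.58 and 1.1 FPKM in OE control, at least 52.1-fold lower when the OE libraries together are set to a limit of 3 counts (adjusted p = 0.0123), while its Ensembl rows averaged 15.9 against 22.2 FPKM. TMCO4 (TCONS_00007901), a transmembrane protein, was likewise at 0 in OE and at 1.99, 1.81 and 0.67 FPKM in OE control, at least 77.9-fold lower by the same limit (adjusted p = 0.00966), with Ensembl rows at 3.07 and 2.55 FPKM. PPP1R7 (TCONS_00085932), a regulatory subunit of protein phosphatase 1, kept 1 count in the OE libraries against 107 in OE control, a ratio of 91.1 with a 95% counting interval of 16 to 3.63e+03 (adjusted p = 0.00971, and 0.0608 in a fit of the overexpression arm alone).

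In the NR0B1 knockdown, 234 assembled transcripts (4.93%) differed from the KD control, 149 higher and 85 lower. Of all rows tested 5.57% were called (2.79% higher and 2.78% lower) and of the Ensembl rows 5.69%; the median log2 change was 0.09 over the assembled transcripts and 0.01 over all rows. The rises included PODXL, PMEPA1 and HPGD, and the falls included AHR, CREB5 and SLC1A3. The share of the called transcripts that were higher was 63.7%, and limma on log2(FPKM + 1) turned it to 45.9% (122 of 266), limma on log2(FPKM + 0.1) to 52.3% and a fit of the 6 libraries of the arm alone to 50% (34 of 68). Called counts were 150 without KD 1, 101, 127 and 82 without KD control 1, 2 or 3, and 382, of which 52.9% were higher, without both libraries that stand apart. The call held in each of the 12 fits that leave out a library for 67 of them, 41 higher and 26 lower.

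The steady rises in the knockdown included secreted and cell surface genes. PODXL (TCONS_00138734; gene at chr7:131500262-131558217), the sialomucin podocalyxin, measured 35.39, 45.97 and 40.74 FPKM in KD against 9.59, 10.45 and 6.58 in KD control, a log2 change of 2.23 ± 0.28 (SE; adjusted p = 0.00299). Its Ensembl rows rose alongside, from a mean of 4.93 to 18.9 FPKM. PMEPA1 (TCONS_00095344; gene at chr20:57648392-57711536), a TGF-beta-induced membrane protein that dampens SMAD signalling, measured 65.19, 54.94 and 72.56 FPKM against 15.15, 12.83 and 12.55, a log2 change of 2.28 ± 0.34 (SE; adjusted p = 0.00635), with Ensembl rows at 235 against 58.0 FPKM. PLXND1 (TCONS_00109080), a semaphorin receptor, measured 7.8, 9.26 and 10.26 FPKM against 3.69, 3.33 and 2.31, a log2 change of 1.58 (adjusted p = 0.00334). The treated and control libraries of all 3 stood apart.

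HTRA1 (TCONS_00016235), a secreted serine protease, measured 9.51, 12.01 and 17.74 FPKM in KD against 4.82, 5.54 and 3.64 in KD control, a log2 change of 1.52 (adjusted p = 0.00929). CELSR1 (TCONS_00101017), a cadherin of planar polarity, measured 17.74, 19.58 and 19.24 FPKM against 7.46, 10.84 and 8.51, a log2 change of 1.11 (adjusted p = 0.00929). ITM2B (TCONS_00037645), a membrane protein cut by furin, measured 88.99, 147 and 91.54 FPKM against 42.18, 48.81 and 47.97, a log2 change of 1.26 (adjusted p = 0.00592). KD stood above KD control in every library. LRP11 (TCONS_00131465), of the LDL receptor-related family, and FLOT2 (TCONS_00064224), a membrane raft protein, rose by 0.79 and 1.32 on the log2 scale (adjusted p = 0.00615 and 0.00693). In a fit of the 6 libraries of the arm alone HTRA1, ITM2B and LRP11 were not called (adjusted p = 0.0733, 0.0593 and 0.0508).

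The list of matrix and integrin genes holds 23 assembled transcripts and 110 Ensembl rows. In the knockdown 16 of the Ensembl rows were higher and 2 lower, with a median log2 change of 0.43. Of the assembled transcripts 6 (26.1%) were called, beside 5.57% of all rows tested. The median over the 23 was 0.71, and the 6 were all higher. Among them were COL1A1 (TCONS_00065847; log2 change 2.09), COL7A1 (0.99), the integrin chain ITGB3 (1.29), SPARC (1.54), a collagen-binding matrix protein, and TIMP2 (0.66), a metalloproteinase inhibitor. COL1A1 measured 17.9, 7.03 and 5.38 FPKM in KD against 2.38, 2.1 and 2.8 in KD control, and KD 1 was the highest. None of the 6 calls held in every fit: the list's count was 3, 3, 1, 1, 0 and 3 without KD 1, KD 2, KD control 1, 2, 3 or OE 2, and 5 without both libraries that stand apart. With overexpression 1 of the 23 (4.35%, beside 4.74% of all rows tested) was called, ITGB1 (TCONS_00017161), the common beta 1 chain of integrins. Its log2 change was -0.63, and this call ended without any of KD control 1 or 2, OE 1, 2 or 3, or OE control 1, 2 or 3 (adjusted p up to 0.135).

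The list of YAP, TGF-beta and epithelial-mesenchymal transition genes holds 13 assembled transcripts. In the knockdown 6 (46.2%, beside 5.57% of all rows tested) were called, 4 higher and 2 lower. The median log2 change was 0.44, and 3 were called without KD 1, KD control 1, KD control 2 or KD control 3. Of the 75 Ensembl rows of the list 7 were higher and 7 lower in the knockdown, with a median log2 change of -0.239. With overexpression 2 assembled transcripts (15.4%, beside 4.74% of all rows tested) were called, both higher. The count was 1 without OE 2 or 3 or OE control 2 or 3, and the median over the 13 was 0.361. There 11 Ensembl rows were higher and 3 lower, with a median of 0.048. TGFBI was called higher in the knockdown in TCONS_00119039, at 1.83, and TCONS_00119041, at 1.41 (edgeR adjusted p = 0.0206 and 0.0456). These calls ended in 4 and 10 of the 12 fits that leave out a library. TCONS_00119039 was also called higher with overexpression, at 1.84 (adjusted p = 0.0235), a call that ended in 4 of those fits. TAGLN (TCONS_00023380), the actin-binding transgelin, measured 53.25, 22.38 and 30.32 FPKM in KD against 8.68, 9.69 and 9.01 in KD control, a log2 change of 1.98 ± 0.30 (SE; adjusted p = 0.00622). WWTR1 (TCONS_00109476), the YAP paralog TAZ, measured 27.42, 28.95 and 32.19 FPKM against 20.24, 21.21 and 19.63, a log2 change of 0.57 ± 0.09 (SE; adjusted p = 0.00839). AMOTL2, described with the transcripts that changed in both arms, was lower, as was TEAD1 (TCONS_00020098), a DNA-binding partner of YAP, at -0.70, a call that ended without KD 1 or 2, any KD control, OE 3, or OE control 2 or 3 (adjusted p up to 0.135). GSN (TCONS_00147567), the actin-severing gelsolin, is outside the list and measured 12.67, 14.08 and 8.01 FPKM against 4.92, 3.64 and 3.93, a log2 change of 1.5 ± 0.24 (SE; adjusted p = 0.00745). In a fit of the knockdown arm alone TAGLN, GSN and WWTR1 had adjusted p of 0.0581, 0.0581 and 0.0725.

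Metabolic enzymes stood on both sides in the knockdown. HPGD (TCONS_00116536; gene at chr4:174490177-174523154), which inactivates prostaglandins, measured 86.27, 82.64 and 88.25 FPKM in KD against 33.69, 30.46 and 41.1 in KD control, a log2 change of 1.32 ± 0.15 (SE; adjusted p = 0.00228). CS (TCONS_00034926), citrate synthase, measured 36.41, 29.89 and 33.44 FPKM against 59.26, 64.69 and 61.51, a log2 change of -0.86 ± 0.11 (SE; adjusted p = 0.00277). FADS1 (TCONS_00025948), a fatty acid desaturase, measured 38.61, 28.14 and 30.09 FPKM against 67.81, 72.46 and 69.2, a log2 change of -1.08 (adjusted p = 0.0113). HPGD was higher and the other 2 lower in every KD library.

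AHR, CREB5 and GPRC5A were among the steady falls in the knockdown. AHR (TCONS_00132319; gene at chr7:16916359-17346152), the ligand-activated aryl hydrocarbon receptor, measured 6.22, 8.11 and 3.88 FPKM in KD against 24.63, 26.09 and 30.5 in KD control, a log2 change of -2.13 ± 0.25 (SE; adjusted p = 0.00243), with Ensembl rows at 7.39 against 20.5 FPKM. CREB5 (TCONS_00132562; gene at chr7:28299321-28825894), a bZIP factor that binds cAMP response elements, measured 1.24, 1.1 and 0.97 FPKM against 3.85, 4.02 and 4.37, a log2 change of -1.86 ± 0.18 (SE; adjusted p = 0.00108). GPRC5A (TCONS_00029234), a retinoic acid-induced receptor of lung epithelium, measured 4.93, 2.84 and 2.19 FPKM against 13.85, 16.53 and 19.28, a log2 change of -2.29 (adjusted p = 0.0104). Each of the 3 was lower in all KD libraries than in any control. SLC1A3 (TCONS_00117299; gene at chr5:36606355-36688334), a glutamate and aspartate transporter, held 3 counts in the KD libraries against 424 in KD control, a ratio of 139 with a 95% counting interval of 47.2 to 677 (adjusted p = 0.00195), and its Ensembl rows averaged 0.0167 against 3.10 FPKM.

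Of the 39 transcripts on the list of splicing factors, 3 (7.69%, beside 5.57% of all rows tested) were called in the knockdown, all higher. They were CLK1 (log2 change 1.25), CLK4 (TCONS_00124192, 0.79) and HNRNPU (0.68), and 0 were called without any of the KD controls in turn. Some single transcripts of RNA processing and DNA repair genes, picked after their values were seen, fell. ALKBH3 (TCONS_00020723; gene at chr11:43880811-43920266), which removes alkyl groups from DNA and RNA, measured 1.28, 1.27 and 0.91 FPKM in KD against 6.86, 7.21 and 8.24 in KD control, a log2 change of -2.65 ± 0.37 (SE; adjusted p = 0.00448). SMG9 (TCONS_00078568), a partner of the SMG1 kinase in nonsense-mediated decay, measured 7.28, 7.19 and 6.84 FPKM against 23.73, 18.81 and 20.44, a log2 change of -1.54 (adjusted p = 0.00252). RBM34 (TCONS_00013301), an RNA-binding protein, measured 0.8, 0.91 and 0.54 FPKM against 3.6, 3.25 and 4.39, a log2 change of -2.29 (adjusted p = 0.00359), with Ensembl rows at 13.2 FPKM in both groups. No KD library reached the lowest control in these. A transcript named Srsf3 from a protein of another organism (TCONS_00125682) measured 6.56, 10.62 and 5.35 FPKM against 27.96, 24.07 and 32.06, a log2 change of -1.87 ± 0.29 (SE; adjusted p = 0.00693), while the Ensembl rows of SRSF3 averaged 52.1 against 57.6 FPKM. PRPF3 (TCONS_00004199), a protein of the spliceosomal tri-snRNP, had a log2 change of -1.11 (adjusted p = 0.0044) with Ensembl rows at 15.2 against 14.5 FPKM. SYNE1 (TCONS_00131505), a nuclear envelope spectrin of 16941 bases here, fell by 1.29 (adjusted p = 0.0044), and AFAP1 (TCONS_00114000), an actin filament protein, by 1.56 (adjusted p = 0.00288).

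The list of glutathione, NRF2 and ferroptosis genes, which bears on the title of the series, holds 18 assembled transcripts of 16 Symbols. In the knockdown 3 (16.7%, beside 5.57% of all rows tested) were called, and 1 without KD 1 or any of the KD controls. AKR1C3 was higher as given below, and AKR1C2 (TCONS_00016568), a hydroxysteroid dehydrogenase, was higher at a log2 change of 2.21 (adjusted p = 0.0371). TXNRD1 (TCONS_00031741), thioredoxin reductase, was lower at -0.90 (adjusted p = 0.0257). TXNRD1 measured 81.84, 75.47 and 125.2 FPKM in KD against 170.6, 180.2 and 186.1 in KD control, and its call ended without KD 1 (0.0903) or KD control 1, 2 or 3 (0.071, 0.0701 and 0.098). The call of AKR1C2, which is close in sequence to AKR1C3, ended without KD 1 or 2, any KD control or any OE library (up to 0.132). With overexpression 1 of the 18 (5.56%, beside 4.74% of all rows tested) was called, AKR1C3, lower. Transcripts of NQO1 (mean 113 FPKM), TALDO1 (104), SAT1 (98.2), SRXN1 (45.4) and NCOA4 (25.2) passed in neither arm, and nor did GPX4 (TCONS_00070572; 0.914 FPKM), the lipid peroxide reductase. No assembled transcript has the Symbol CBS or NFE2L2.

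Other lists gave few calls. The shares called over all rows tested were 4.74% with overexpression and 5.57% in the knockdown. Of the 11 transcripts of ATF4 and amino acid response genes, 2 were called in the knockdown, both lower, with a median log2 change of -0.98, beside 11 of 87 Ensembl rows, all lower; the count was 0 without KD control 3, 1 without KD 1 or 3, KD control 1 or 2, any OE library or OE control 2, 5 without KD 2 and 4 without OE control 1. They were SLC1A4 (TCONS_00081643), a neutral amino acid transporter, at -1.69 (0.0589 without KD control 3) and STC2 (TCONS_00123971), stanniocalcin, at -1.82 (not called without KD 1 or 3, any KD control, any OE library or OE control 2, up to 0.125). A different STC2 transcript (TCONS_00123970) was the only called member of that list with overexpression, at 2.04, and lost its call without OE 2 or 3 or OE control 2 or 3 (up to 0.0783); the list's count was 3 without OE control 1 and 2 without KD 2 or 3. Of 20 cell cycle transcripts, MCM2 (TCONS_00103991) was higher at 0.97 and MCM7 (TCONS_00137862) lower at -0.95 with overexpression, both subunits of the replicative helicase and neither called without OE 2 or 3 or OE control 2 or 3 (up to 0.0987), MCM2 also not without OE 1; in the knockdown edgeR called 0 of the 20 and DESeq2 1, and 1 had an unadjusted p below 0.05. FOSB (TCONS_00073982), an AP-1 subunit, was the single call among 6 immediate early transcripts with overexpression, at 2.86, 3.24 and 3.84 FPKM against 0.08, 0 and 0.15 (adjusted p = 0.0488), and the call ended without any OE, OE control or KD control library (up to 0.118). In the knockdown edgeR called 0 of the 6 and DESeq2 1, with 2 at an unadjusted p below 0.05. Among 7 p53 target transcripts edgeR and DESeq2 called 0 with overexpression (0 at an unadjusted p below 0.05) and edgeR 1 in the knockdown (0 without KD 1, OE 1, OE 2 or any KD control). Among 16 ribosome and translation transcripts edgeR called 0 with overexpression (DESeq2 1, and 3 at an unadjusted p below 0.05) and 1 in the knockdown, RPS24 (TCONS_00015153), at 0.89 (adjusted p = 0.0363; 0 without KD 1 or 3, any KD control, OE 1 or 3, or OE control 2). The list of long noncoding RNAs has no assembled transcript, and no Ensembl row of it was among the rows tested. SETD5 (TCONS_00101307), a chromatin regulator, measured 3.11, 3.81 and 4.12 FPKM in KD against 10.05, 10.51 and 7.71 in KD control and was the single call of its list there, at -1.33 (adjusted p = 0.0113), in each of the 12 fits.

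The ratio of an assembled transcript to the summed Ensembl rows of its Symbol could be tested for 3992 transcripts, with limma on log2 ratios of expected counts. With overexpression 42 ratios changed (1.05%), 28 higher and 14 lower, but 9 and 12 without OE 2. Of all rows tested in this way 0.692% changed, and of the Ensembl rows 0.632%. In the knockdown 12 ratios changed (0.301%), 8 higher and 4 lower, beside 0.0681% of all these rows and 0.0293% of the Ensembl rows. The 12 were among the 19 called over all these rows. Without a single library the overexpression count was 23, 21 and 21 (OE 1, 2 and 3), 101, 14 and 19 (OE control 1, 2 and 3) and 20, 22 and 18 (KD control 1, 2 and 3), and it was 127 without both libraries that stand apart; the knockdown count was 20 without KD 3 and 10 to 16 without any other library. The transcripts described next kept a called ratio in each of the 12 fits.

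Where such a ratio rose, the assembled transcript was often at 0 in the control. BLMH (TCONS_00064315; gene at chr17:30248195-30292056), bleomycin hydrolase, measured 7.57, 3.31 and 9.1 FPKM in KD and 0 in all KD controls, at least 326-fold higher when the KD controls together are set to a limit of 3 counts (adjusted p = 0.000546). The Ensembl rows of BLMH summed to 24.39, 20.94 and 13.31 FPKM in KD and 23.76, 27.5 and 28.14 in KD control, and the change of the log2 ratio was 9.69 (limma adjusted p = 7.308e-05). CDK12 (TCONS_00060090; gene at chr17:39461511-39564907), a kinase of RNA polymerase II elongation, measured 1.05, 0.68 and 0.78 FPKM against 0 in all controls, at least 161-fold higher (adjusted p = 0.000289), with Ensembl rows at 30.2 against 33.0 FPKM. CSE1L (TCONS_00093313; gene at chr20:49046246-49096960), the exporter of importin alpha, measured 0.86, 7.16 and 9.18 FPKM against 0, at least 392-fold higher (adjusted p = 0.00563, and 0.0815 in a fit of the knockdown arm alone), with Ensembl rows at 83.5 against 68.6. RPN2 (TCONS_00092929), an oligosaccharyltransferase subunit, measured 0.6, 0.4 and 1.28 FPKM against 0, at least 31.2-fold higher (adjusted p = 0.00383, and 0.0818 in a fit of the knockdown arm alone), with Ensembl rows at 43.8 against 40.9. The fitted ratios of such rows depend on the pseudocount of 0.5 counts.

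**Figure D3:**
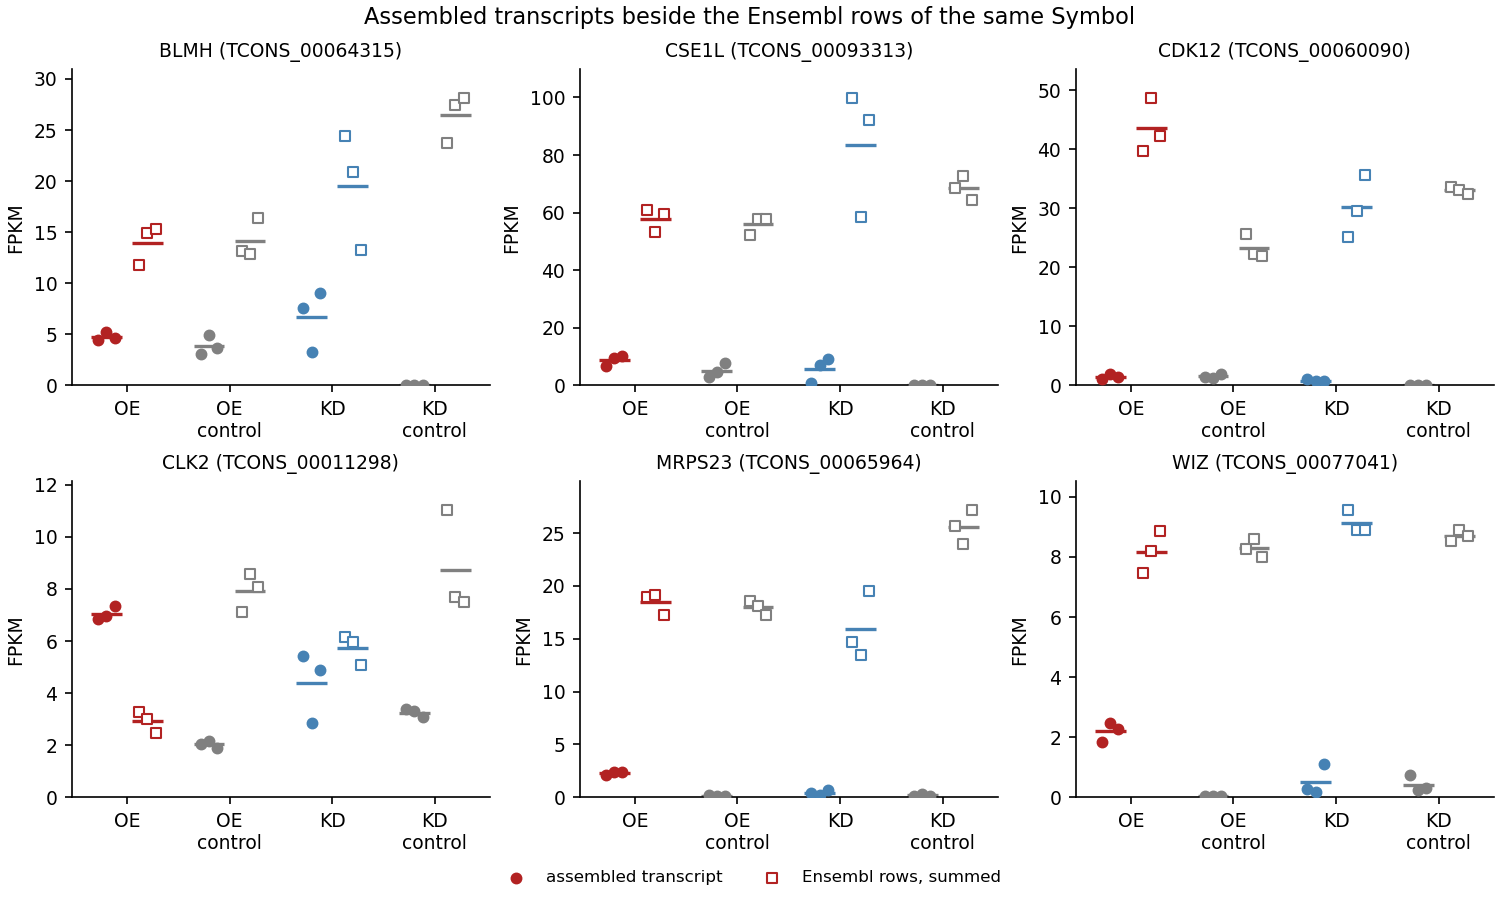
FPKM (y axis, from 0) of an assembled transcript (filled circles) and of the summed Ensembl rows of its Symbol (open squares) in each library of the 4 groups, with lines at group means, for BLMH, CSE1L, CDK12, CLK2, MRPS23 and WIZ. The BLMH, CSE1L and CDK12 transcripts are at 0 in the KD control and above 0 in every KD library, and for CLK2 the circles rise and the squares fall with overexpression.

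In some ratios the Ensembl rows differed as well. For FGF2 (TCONS_00112772; gene at chr4:122826708-122898236), a fibroblast growth factor, the assembled transcript was at 0 in 9 libraries and at 3, 6.41 and 5.56 FPKM in the KD control only, so it passed the expression rule through that group. It was at least 644-fold lower in KD (adjusted p = 0.00744, and 0.053 without KD control 3), the Ensembl rows averaged 14.8 FPKM in KD against 32.9, and the log2 ratio changed by -9.29 (limma adjusted p = 0.000949). MEF2D (TCONS_00011439; gene at chr1:156463727-156500828), a transcription factor of the MADS family, measured 6.51, 9.43 and 5.84 FPKM in OE against 14.92, 15.97 and 17.08 in OE control. Its Ensembl rows rose from 17.9 to 31.8 FPKM, and the log2 ratio changed by -2.32 ± 0.21 (SE; limma adjusted p = 0.00185). SREK1 (TCONS_00117677; gene at chr5:66139971-66183615), a splicing regulator with SR motifs, was at 2.18, 2.71 and 2.03 FPKM in OE and at 0 in the other 9 libraries, at least 309-fold higher (adjusted p = 0.00983, and 0.0567 and 0.0529 without OE 2 or OE 3). It passed the expression rule through the OE libraries alone, so a difference was built into its choice and its ratio, as for FGF2 through the KD control. The Ensembl rows of SREK1 averaged 24.0 against 8.91 FPKM, and the log2 ratio changed by 8.26 (limma adjusted p = 0.000163). For CLK2 the log2 ratio changed by 3.22 ± 0.28 (SE; limma adjusted p = 0.00111) and for MRPS23 by 4.13 ± 0.47 (0.00783).

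For most called transcripts the Ensembl rows of the Symbol were not called. With overexpression, 207 called transcripts had an Ensembl row of their Symbol: 44 had at least 1 Ensembl row called in the same direction, 5 in the opposite direction only, and 158 had none called, of which 18 had no Ensembl row that passed the expression rule. In the knockdown the numbers were 56, 5 and 129 of 190, with 8 lacking a tested Ensembl row. Where the Ensembl rows summed to 1 FPKM or more, their sum moved in the direction of the assembled transcript with overexpression for 142 of 188 and for 141 of 180 in the knockdown, and it differed by under 1.25-fold for 62 and 48. Over the 3034 transcripts with at least 1 FPKM on both sides, the log2 differences of transcript and Ensembl sum had Pearson's r of 0.170 with overexpression and 0.333 in the knockdown, a description across transcripts that share libraries and reads.

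**Figure D4:**
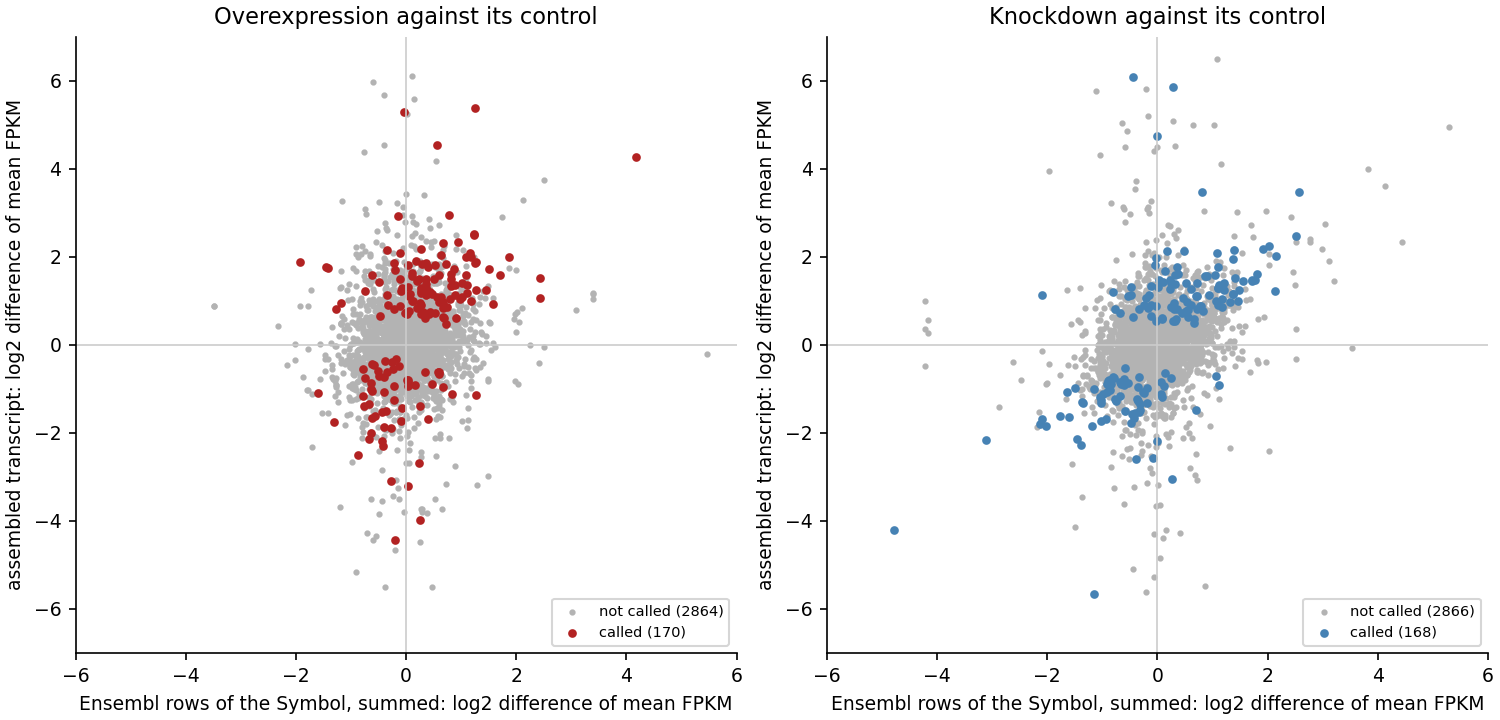
Log2 difference of mean FPKM (treated over control, pseudocount 0.1) of each assembled transcript (y axis) against that of the summed Ensembl rows of its Symbol (x axis), for overexpression (left) and knockdown (right); grey points were not called (2864 and 2866) and coloured points were called (170 and 168). Most coloured points lie on the same side of 0 on both axes, with a number near 0 on the x axis.

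Assembled transcripts of the same Symbol could move apart. CKLF, a chemokine-like factor (chr16:66552563-66566251), had a pair of transcripts of 5198 and 5219 bases, where the longest annotated form has 669. TCONS_00053509 was at 0 in all OE libraries and at 1.99, 1.93 and 2.25 FPKM in OE control, at least 187-fold lower (adjusted p = 0.0434), and TCONS_00053510 was at 1.32, 2.67 and 1.85 FPKM in OE and 0 in the other 9 libraries, at least 205-fold higher (adjusted p = 0.0167). TCONS_00053510 passed the expression rule through the OE libraries alone, as SREK1 did. Of the 70 assembled transcripts that passed through a single group in this way, the overexpression test called 21 and the knockdown test 3, from which nothing is read. The call of TCONS_00053509 ended without KD 1 or 3, KD control 2 or 3, any OE library, or OE control 2 or 3 (adjusted p up to 0.115), and that of TCONS_00053510 without OE 1, 2 or 3 or OE control 2 (up to 0.0788). The log2 ratio of TCONS_00053510 to the Ensembl rows changed by 8.85 (limma adjusted p = 8.503e-05) and was called in all 12 fits, and the Ensembl rows of CKLF averaged 12.02 against 13.78 FPKM. Each of those fits took the row in through its OE values, so nothing is read from this ratio either.

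In the knockdown a pair of transcripts of HIVEP2 (chr6:142751467-142956698), a large zinc finger factor, went apart. TCONS_00131330 measured 0.42, 1.53 and 0.61 FPKM in KD, with 504 counts, against 1 count in KD control, a ratio of 513 with a 95% counting interval of 91.6 to 2.03e+04 (adjusted p = 0.00108). TCONS_00131337 measured 0.64, 1.06 and 1 FPKM against 2.65, 1.83 and 2.61, a log2 change of -1.37 ± 0.25 (SE; adjusted p = 0.015, and 0.0573 and 0.0652 without KD control 1 or KD control 3). In a fit of the knockdown arm alone its adjusted p was 0.0782. Thus 1 of the pair was nearly missing from the KD controls while the other was highest there.

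Taking both arms, 347 assembled transcripts (7.32%, beside 7.45% of all rows tested) differed between the response to overexpression and the response to knockdown, 176 with the higher change under overexpression (3.93% of all rows) and 171 with the higher change in the knockdown (3.52%). This count was 218, 208 and 182 without OE 1, 2 or 3, 192 and 212 without OE control 2 or 3, and 186, 210 and 179 without KD control 1, 2 or 3. Called in each arm on its own were 30 transcripts: 8 higher with overexpression and lower in the knockdown, 12 the reverse, and 10 higher in both. The 30 became 19, 14 and 16 without OE 1, 2 or 3, 59, 14 and 18 without OE control 1, 2 or 3, 57 and 50 without KD 2 or 3, 12, 13 and 12 without KD control 1, 2 or 3, and 106 without both libraries that stand apart. Over all rows tested, 246 were called in both arms, 186 of them in opposite directions. The arms have separate controls. NR0B1 was at 6.99, 24.59 and 22.02 FPKM in the OE control and at 7.0, 9.01 and 5.47 in the KD control.

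AMOTL2 (TCONS_00109188; gene at chr3:134355874-134375479), an angiomotin that binds YAP and is itself a YAP target, was higher with overexpression and lower in the knockdown. It measured 78.55, 89.02 and 91.08 FPKM in OE against 23.64, 21.8 and 25.09 in OE control, and 17.37, 10.29 and 24.35 in KD against 60.27, 53.33 and 53.7 in KD control. It rose by 1.84 ± 0.25 on the log2 scale with overexpression (SE; adjusted p = 0.00724) and fell by 1.65 ± 0.25 in the knockdown (adjusted p = 0.00678), and its Ensembl rows averaged 24.0 against 10.1 and 6.58 against 28.5 FPKM. The OE controls and the KD controls did not overlap, and the KD libraries reached the range of the OE controls. In a fit of the knockdown arm alone the adjusted p was 0.0706.

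SYDE2 (TCONS_00009689; gene at chr1:85156873-85201046), a GTPase-activating protein, measured 2.48, 2.55 and 3.12 FPKM in OE against 0.75, 0.68 and 0.65 in OE control, and 0.61, 0.67 and 0.79 in KD against 1.74, 1.95 and 1.94 in KD control. The log2 changes were 1.93 ± 0.18 (SE; adjusted p = 0.00171) and -1.41 ± 0.18 (0.00293), and here too the KD libraries lay at the level of the OE controls. NAB1 (TCONS_00084404; gene at chr2:190646746-190692766), a corepressor of EGR factors, measured 1.09, 2.83 and 1.95 FPKM in OE, 0.26, 0.22 and 0.42 in KD control and 0 in the other 6 libraries. It was at least 159-fold higher with overexpression (adjusted p = 0.00709) and at least 25.6-fold lower in the knockdown (0.00901, and 0.409 with limma on log2(FPKM + 1)), and it passed the expression rule through the OE libraries only. The Ensembl rows of NAB1 rose in the knockdown, at 24.94, 32.12 and 29.67 FPKM against 13.15, 13.47 and 11.06, and the log2 ratio changed by 7.69 and -6.88 in the 2 arms (limma adjusted p = 0.000498 and 0.00211). A rise with overexpression, of the transcript and of this ratio, was built into the choice of the NAB1 transcript. Nothing is read from that rise or its call.

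HOXB5 (TCONS_00065706; gene at chr17:48591257-48593961), a homeobox factor of lung development, was lower with overexpression and higher in the knockdown. Its transcript of 9252 bases, beside 2041 for the longest annotated form, measured 1.93, 1.2 and 1.29 FPKM in OE against 4.6, 4.43 and 4.03 in OE control, and 4.1, 5.59 and 4.28 in KD against 2.07, 2.03 and 2.1 in KD control. The log2 changes were -1.60 ± 0.20 (SE; adjusted p = 0.00538) and 1.20 ± 0.19 (0.00817), and the Ensembl row of HOXB5 was at 0 in 10 of 12 libraries. The transcript is also longer than the whole annotated gene, so that this name is in doubt. Its OE controls and KD controls did not overlap, and the KD libraries reached the range of the OE controls. AKR1C3 measured 454.1, 333.8 and 369.4 FPKM in OE against 588.9, 523.1 and 589.7 in OE control, and 419, 416 and 437.9 in KD against 216.9, 264.1 and 243.3 in KD control. Its OE libraries and its OE controls all stood above its KD controls. It rose by 0.84 ± 0.13 in the knockdown (SE; adjusted p = 0.00693) and fell by 0.59 with overexpression (adjusted p = 0.0337), a call that ended without OE 2 (0.109), OE 3 (0.116), OE control 2 (0.0701), OE control 3 (0.107), KD control 2 (0.0521) or KD control 3 (0.0567).

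**Figure D5:**
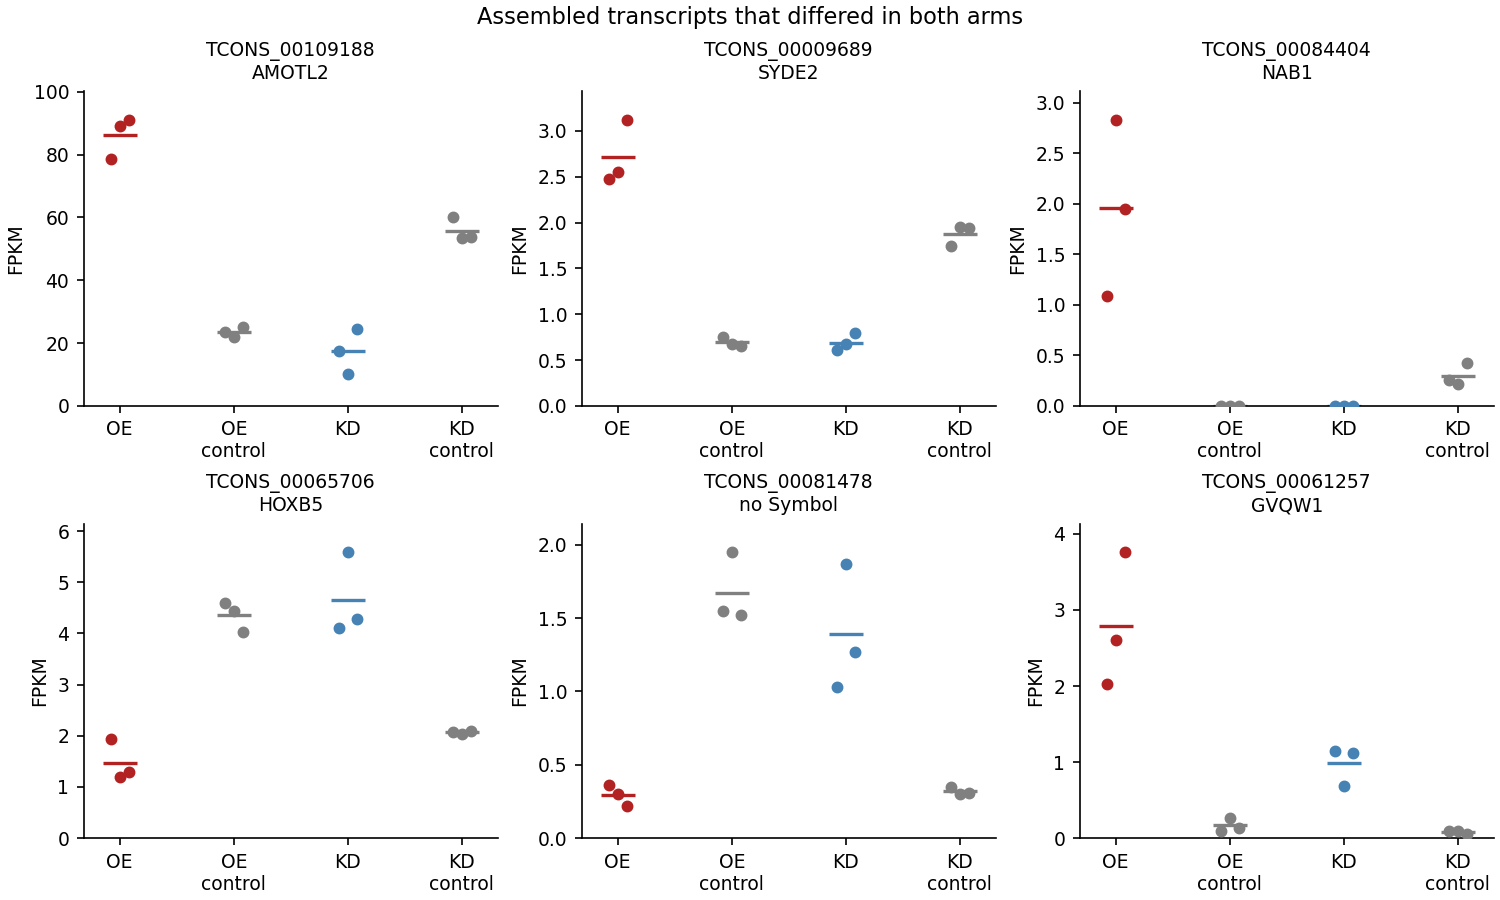
FPKM (y axis, from 0) of 6 assembled transcripts in each library of the 4 groups (points) with group means (lines): AMOTL2, SYDE2 and NAB1 higher with overexpression and lower in the knockdown, HOXB5 and TCONS_00081478 the reverse, and the GVQW1 transcript TCONS_00061257 higher in both. Treated and control libraries do not overlap in either arm in any of the 6 panels, which only describes the points drawn. The NAB1 transcript passed the expression rule through the OE libraries only, so its rise with overexpression was built into its choice.

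Transcripts with no Symbol gave the highest share of calls of the 4 classes. With overexpression 36 of 197 (18.3%) were called, 20 higher and 16 lower, and in the knockdown 22 (11.2%), 20 higher and 2 lower. The first count was 22, 14 and 14 without OE 1, 2 or 3, 11 and 13 without OE control 2 or 3, and 54 without both libraries that stand apart; the other was 9 and 10 without KD control 1 or 3, 13 without KD control 2 (15 without KD 1), and 26 without both libraries. Transcripts with another Symbol were called in 6.69% and 6.28% and those that match a Symbol apart from letter case in 4.12% in each arm. Over all rows tested the shares were 4.74% with overexpression and 5.57% in the knockdown. Of the 33 with retroelement words, 7 were called with overexpression (3 without OE 1, KD control 1 or KD control 3, 1 without OE control 3, and 0 without OE 2, OE 3 or OE control 2) and 3 in the knockdown (1 without any KD control, 7 without KD 3).

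TCONS_00081478, of 8174 bases, measured 0.36, 0.3 and 0.22 FPKM in OE against 1.55, 1.95 and 1.52 in OE control, and 1.03, 1.87 and 1.27 in KD against 0.35, 0.3 and 0.31 in KD control. It fell by 2.53 ± 0.29 on the log2 scale with overexpression (SE; adjusted p = 0.00386) and rose by 2.14 ± 0.28 in the knockdown (0.00355). TCONS_00082820, of 53639 bases, measured 0.89, 0.91 and 0.72 FPKM against 1.73, 2.26 and 2.32, and 2.05, 3.71 and 2.45 against 0.88, 1.14 and 1.07, in the same order of groups. Both were low in OE and KD control and high in the other groups, with no overlap within an arm. In the other direction, TCONS_00109397 (12355 bases) rose with overexpression, at 6.23, 8.91 and 8.06 FPKM against 1.03, 0.97 and 0.64, by 3.09 ± 0.28 on the log2 scale (SE; adjusted p = 0.00171). TCONS_00102300 (20191 bases) measured 6.99, 9 and 7.32 FPKM against 1.1, 1.11 and 0.92 in the same comparison, a log2 change of 2.86 (adjusted p = 0.00696). In the knockdown TCONS_00104416 (3774 bases) measured 3.82, 3.36 and 2.55 FPKM against 0.17, 0.19 and 0.31, a log2 change of 3.88 ± 0.49 (SE; adjusted p = 0.00302).

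The 10 transcripts called higher in both arms had 2102 to 18817 bases. TCONS_00128366, with no Symbol and 14636 bases, measured 11.72, 12 and 12.05 FPKM in OE against 4.8, 5.45 and 5.61, and 9.02, 10.18 and 10.46 in KD against 5.99, 7.15 and 5.91. Its log2 changes were 1.14 ± 0.10 (SE; adjusted p = 0.00157) and 0.67 ± 0.10 (0.00615, and 0.0671 in a fit of the knockdown arm alone). GVQW1 is a name given through a short repeat-like protein motif, and its 21 transcripts went in both directions: 4 were higher and 1 lower with overexpression, and 3 were higher in the knockdown (with overexpression 3 in all without OE 2 or OE 3 and 2 without OE control 2). TCONS_00061257 (10934 bases) measured 2.02, 2.6 and 3.76 FPKM in OE against 0.1, 0.26 and 0.14, and 1.14, 0.69 and 1.12 in KD against 0.09, 0.1 and 0.06. Its log2 changes were 4.0 ± 0.42 and 3.56 ± 0.41 (SE; adjusted p = 0.003 and 0.00226). TCONS_00065851, also named GVQW1, rose in the knockdown, at 1.5, 2.89 and 1.85 FPKM against 0.28, 0.4 and 0.36 (log2 change 2.61 ± 0.26, SE; adjusted p = 0.00132).

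Of the other Symbols with many transcripts, SMG1 had 4 of 34 called with overexpression, all higher (0 without OE 2, OE 3, OE control 2 or OE control 3, 1 without OE 1 or KD control 3, and 2 without KD control 1 or 2). C16orf89 had 4 of 24, all lower (1 without any OE library, any KD control, OE control 2 or OE control 3, 2 without KD 1, and 7 without OE control 1). Of all rows tested 2.83% were called higher and 1.91% lower. Every Ensembl row of C16orf89 was listed at 0 in all libraries, so that this name is in doubt. For PKD1 edgeR called 0 of 27 with overexpression, DESeq2 8 and limma 4 to 6, and 14 had an unadjusted p below 0.05. For HERC2 edgeR and limma called 0 of 20 and DESeq2 3, with 5 at an unadjusted p below 0.05.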

How the data were processed

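RNA-seq of mRNA-enriched RNA (NEBNext Ultra kit, per the labels' protocols) was analysed from 12 A549 libraries in 4 labelled groups of 3. The deposited table gives FPKM and expected counts per transcript; both are the authors' values, and expected counts are estimates that need not be whole. The submitters' processing notes list HISAT2 2.0.5, fastp, Bowtie2 2.2.8, RSEM and StringTie 1.3.1 without roles, and the builds GRCm38 and mm10. Those are mouse builds, although 82237 of the 82270 Ensembl identifiers are in GENCODE 29, a human annotation. The build aligned to and the strand setting: not given in the sources used here.

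Expected counts were rounded and tested with edgeR 4.0.16 (quasi-likelihood, robust, TMM scaling, R 4.3.3) in 1 fit of the 12 libraries, on the 31858 assembled and Ensembl rows with FPKM of 1 or more in 3 libraries. P-values were adjusted by Benjamini-Hochberg over all rows, and rows below 0.05 were called. Ratios of a transcript to the other Ensembl rows of its Symbol (pseudocount 0.5, partner mean of 10 counts or more, 27891 rows) were tested with limma 3.58.1. Alternatives were DESeq2 1.42.0, RLE scaling, limma on log2(FPKM + 1) and log2(FPKM + 0.1), other filters and pseudocounts, each arm alone, a replicate block and each library left out; leaving out OE control 1 and KD 2 together was added after seeing the data. Transcript length was derived from expected count, library total and FPKM and scaled on 27108 Ensembl rows. Of 17 Symbols that had become dates, 15 were restored. Counting intervals cover counting error only.

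On counts simulated for the overexpression comparison (31858 rows), the test recovered 0% of 1.5-fold, 0% of 2-fold and 18.2% of 4-fold changes, with 0 false calls. For the knockdown comparison (31858 rows) it recovered 0%, 4.48% and 27.3%, with 1 false call. The simulation changed 67, 67 and 66 rows by these folds in each comparison, while 1511 and 1776 rows were called in the data.

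A fixed rule took transcripts by expression, size of change, gene list, calls in both arms, ratio calls, names and nearness to the expression limit. Transcripts taken by size of change had to be called with no overlap between treated and control libraries. Many transcripts named in the text fall outside that rule and were chosen after their values were seen, mostly because their calls held with each library left out. Some transcripts counted in the lists are not reported here by name. The set and all gene lists were chosen with earlier results of these data known.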

Additional observations from a re-analysis of the deposited data

Results flagged for a closer look

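The change with overexpression differed from the change in the knockdown for 347 assembled transcripts, by edgeR's test of that difference (Benjamini-Hochberg adjusted). The log2 change with overexpression minus that in the knockdown was 3.49 for AMOTL2, 3.34 for SYDE2, -2.80 for HOXB5 and -1.44 for AKR1C3. These were called in opposite directions in the arms, and for each the OE controls and KD controls did not overlap. The difference was 1.03 for PRICKLE2, which was called higher in both, although its knockdown call ended in 9 of the fits that leave out a library. For NAB1 it came to 17.89, a value that depends on the prior count, since all OE control and KD libraries were listed at 0. The NAB1 transcript passed the expression rule through the OE libraries only, so nothing is read from this value.

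Of the transcripts with no Symbol, the difference was -4.67 for TCONS_00081478, -3.86 for TCONS_00015691, -3.73 for TCONS_00050051, -2.80 for TCONS_00082820 and -1.79 for TCONS_00010546. In each of these 5 all OE libraries lay below all OE controls, and all KD libraries above all KD controls. TCONS_00015691 measured 0.38, 0.31 and 0.29 FPKM in OE against 1.67, 1.88 and 1.7 in OE control, and 1.17, 1.7 and 0.94 in KD against 0.43, 0.52 and 0.51 in KD control. Its knockdown call ended without KD control 1 or 3 (adjusted p = 0.0567 and 0.0514). TCONS_00010546 measured 3.25, 4.02 and 3.06 FPKM in OE against 4.6, 6.79 and 5.47, and 5.64, 7.06 and 6.83 in KD against 3.18, 3.3 and 3.14. Its overexpression call ended in 8 of the fits that leave out a library (adjusted p up to 0.131).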

How the results depend on the processing

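The number called with overexpression (266) became 656 with DESeq2, 161 with no filter on low values, 164 with the replicate block and 601 without OE control 1 and KD 2, and 70 to 417 with each library left out. In the knockdown the 234 became 580 with DESeq2, 146 with no filter, 68 in a fit of the arm alone and 382 without those 2 libraries, and 82 to 288 with each library left out. For the difference of the arms the 347 became 752 with DESeq2 and 194 with no filter, and 179 to 472 with each library left out. Ratio calls with overexpression (42) became 23 on FPKM with a pseudocount of 0.1, 13 with the replicate block (6 higher and 7 lower, against 28 and 14) and 127 without the 2 libraries, and 14 to 101 with each library left out; in the knockdown the 12 became 6 and 7 under the FPKM ratio and the block, and 10 to 20. A limit of 2 FPKM left 3095 transcripts. The other settings kept these counts within 1.5 times. For the 44 and 55 calls followed through each setting, mostly those described as steady, no change turned its sign. The balance of higher and lower calls did turn where the text says so. RLE scaling, the change of scaling tried, kept all of the 44 and 55 calls. Other named calls, such as those of SRSF7, TET3 or COL1A1, were followed with libraries left out, by adjusted p only.

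Replicate numbers did not pair the libraries (correlations of deviations from -0.086 to 0.090), and of the 44 and 55 calls 40 and 52 were kept under the replicate block; it ended the calls of AKR1C3, both CKLF transcripts and SREK1 with overexpression and of PRICKLE2, PANX1 and FGF2 in the knockdown. The fit of the knockdown arm alone kept 33 of 55. Besides the calls given above as lost there, it ended those of SYNE1, NAB1, TNS4, DNTTIP2, PRICKLE2, AADAC and PANX1 (adjusted p up to 0.15). It also ended those of TCONS_00015691, TCONS_00050051 and TCONS_00082820. The fit of the overexpression arm alone kept 41 of 44 and ended the calls of PPP1R7, AKR1C3 and TCONS_00010546. With a limit of 0.5 FPKM the set grew to 6547 transcripts. In the simulated counts, changes of 2-fold or less were mostly not recovered. Those counts held far fewer changed rows than the data, which makes the adjustment stricter, so this does not carry over to the data. Of the 266 and 234 transcripts called in the arms, 199 and 168 changed 2-fold or more and the others less.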
